A study of Mus musculus with 28 samples.

Results

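The genotype by fenofibrate interaction asks, gene by gene, whether fenofibrate changed messenger RNA by a different factor in Irgm1KO macrophages than in wild-type (WT) macrophages. It is the difference between fenofibrate and control in Irgm1KO cells minus the same difference in WT cells, on the log2 scale. A positive value means that fenofibrate raised a gene more, or lowered it less, in Irgm1KO cells, and a negative value the reverse. All 15429 genes that passed a low-count filter were tested, out of 56941 in the table. A further 26301 genes were at 0 in every library, and 15211 had reads but too few to pass. The adjusted p (edgeR's quasi-likelihood test, Benjamini-Hochberg adjustment over all tested genes) was under 0.05 for 4565 genes, the interaction genes, and a gene or response is said to be called where it passed that threshold.

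The cells were bone marrow-derived macrophages, which are primary macrophages grown from mouse marrow, from WT mice and from Irgm1-deficient mice backcrossed to C57BL/6. Animals of both sexes, 2 to 4 months old, gave marrow that was cultured for 6 days in medium conditioned by L929 cells, a source of macrophage growth factor, and then for 24 h without it. Each genotype had a control group and a group given 50 µM fenofibrate, with 4 libraries in each of the 4 groups, 16 of the 28 libraries of the series. How long the drug was given and what control cells received are not given in the labels, nor whether each replicate number is a separate animal, so the p-values reflect how far these libraries spread. A replicate number was shared by 1 control and 1 fenofibrate library of a genotype, and the libraries behaved as pairs.

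Fenofibrate is a lipid-lowering drug whose active form binds the nuclear receptor PPAR alpha, which switches on fatty acid oxidation and peroxisomal genes, above all in liver. Irgm1 is an interferon-induced GTPase that acts in autophagy and in the quality control of mitochondria, and its loss is known for raised type I interferon signalling. Type I interferons signal through their receptor to transcription factors that bind a sequence called the interferon-stimulated response element and switch on antiviral genes.

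Irgm1 (ENSMUSG00000046879) was read at 1669, 1514, 1652 and 1577 counts per M (CPM, where M is 1e6 counts) in the WT control libraries and at 1013, 1040.3, 1029 and 991 in the Irgm1KO control libraries. With fenofibrate it was at 1673, 1469.7, 1625 and 1582 CPM in WT and 1017, 1144, 1093 and 1048 in Irgm1KO. Every library labelled Irgm1KO lay below every WT library, and a response to fenofibrate was called in neither genotype (interaction 0.093 ± 0.076, log2 ± SE, adjusted p = 0.397). A count over the whole gene does not show which exons the allele lacks, so the remaining reads check the label only in part.

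Library totals ran from 82.4 to 120.8 M counts. Mitochondrially encoded genes took a median of 1.96% of counts in WT control, 1.39% in treated WT cells, 0.909% in Irgm1KO control and 1.57% in treated Irgm1KO cells, and the part of this share in other results was not tested. Of the 12 macrophage markers, 6 were called with a positive interaction (50%, beside 14.9% of all tested genes). The 12 markers summed to 29200 to 39500 CPM in control WT libraries, 18200 to 28600 in treated WT, 15800 to 19000 in control Irgm1KO and 20200 to 24200 in treated Irgm1KO. Lyz2, the most abundant of them, had means of 17700, 12300, 5350 and 10600 CPM in the same order.

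Markers of other cell types were mixed. Ly6g, Flt3, Cd3e, Cpa3, Epx and Hbb-bs were at or near 0 in all groups, and summed natural killer markers reached no more than 0.0296 CPM in any library. Other members of these lists were read at higher levels that differed between groups, given here in the order control WT, treated WT, control Irgm1KO and treated Irgm1KO. Summed neutrophil markers, mostly Csf3r, ran from 93.9 to 110 CPM, 45.8 to 75.7, 112 to 134 and 58 to 61.8, and Il7r (T cell) had means of 177, 274, 161 and 212 CPM. Mean Ighm (B cell) was 47.1, 13.8, 8.22 and 11.9 CPM, and mean Clec9a (dendritic cell) 36.2, 17.8, 53.7 and 61.3. Of the endothelial list, mean Kdr was 34.5, 35.7, 186 and 36.5 CPM and mean Vwf 71.2, 170, 45.1 and 90.8. Summed dendritic markers ran from 234 to 285, 266 to 323, 650 to 770 and 402 to 461 CPM in that order, and Bst2, which is also an interferon-stimulated gene, makes up most of the sum. The part of these markers in the results was not tested.

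The interaction was positive for 2304 genes (14.9% of those tested) and negative for 2261 (14.7%), 29.6% together. The scaling of the libraries centres the median of all tested genes near 0 (-0.0032 for the interaction), so list medians are relative to it. In WT cells fenofibrate raised 2794 genes (18.1%) and lowered 2613 (16.9%). In Irgm1KO cells it raised 3626 (23.5%) and lowered 3427 (22.2%). These shares of all tested genes are the background for the counts of list members raised or lowered below. These WT and Irgm1KO responses share no library, and across genes they correlated with Pearson's r of 0.362 and Spearman's rho of 0.361, where genes are not independent replicates.

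By the sign of the estimates alone, however small and whether called or not, most interaction genes had opposite responses in the genotypes. Far fewer had both responses called with opposite signs, as counted below. Choosing genes by the difference between the responses itself favours opposite signs. The share of opposite signs among all tested genes is not given, so the percentage has no background here. Of the 4565, 1356 had a higher level with fenofibrate in Irgm1KO and a lower one in WT, and 1339 the reverse, together 59.0%. The response had the same sign and was larger in Irgm1KO for 1383 (30.3%) and smaller in Irgm1KO for 487 (10.7%). Fenofibrate itself was called in both genotypes for 1171 of these genes, and for 536 of them with opposite signs (11.7% of the 4565). It was called in Irgm1KO but not in WT for 2102, in WT but not in Irgm1KO for 1145, and in neither for 147.

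The size of the interaction exceeded 1 on the log2 scale, a 2-fold difference between the responses, for 995 genes. Of these, 509 were positive and 486 negative. The 4 within-number differences of one genotype lay wholly outside those of the other for 4297 interaction genes (94.1%), beside 5907 (38.3%) of all tested genes. An interaction depends on the scale when starting levels differ. Measured as a difference of CPM differences instead of log2 differences, the sign was the same for 4558 of 4565 genes.

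**Figure D1:**
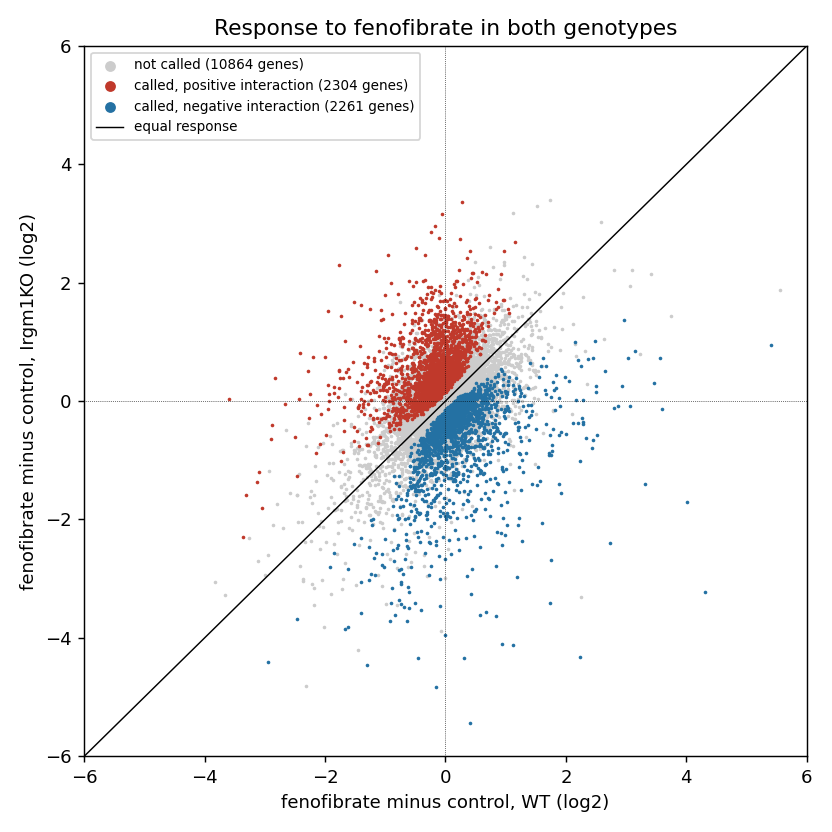
Each point is 1 of 15429 tested genes, with fenofibrate minus control in WT on the x axis and in Irgm1KO on the y axis (both log2). Red points are the 2304 genes called with a positive interaction, blue points the 2261 with a negative one, grey points were not called, and the diagonal marks an equal response.

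Genes that type I interferon induces had the most negative median of the 29 lists. Of 64 tested interferon-stimulated genes, 56 had a negative and 1 a positive interaction (89.1% called, beside 29.6% of all genes). The list median was -0.88. Fenofibrate lowered 46 of the 64 in WT (median -0.39) and 63 in Irgm1KO (median -1.17). The median difference between Irgm1KO and WT was 1.19 without the drug and 0.38 with it. Such genotype differences share libraries with the interaction and are given beside it to show the levels. In bulk RNA, fewer cells of a kind and less RNA per cell cannot be told apart.

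Isg15, a ubiquitin-like antiviral protein, was at 526, 428, 356 and 502 CPM in the Irgm1KO control libraries and at 85.3, 96.2, 65.1 and 90.6 with fenofibrate. In WT it was at 48.8, 51.5, 65.7 and 44.2 CPM in control and 28.6, 28.7, 40.1 and 24.1 with fenofibrate. The Irgm1KO control libraries stood far above the other 3 groups. Fenofibrate lowered it 5.37-fold in Irgm1KO and 1.73-fold in WT (interaction -1.63 ± 0.24, adjusted p = 1.46e-04).

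Irf7, the transcription factor that amplifies interferon production, was at 1680.2, 1430.1, 1388 and 1739 CPM in Irgm1KO control and 513, 558, 405 and 486 with fenofibrate. WT levels were 259 ± 57.2 CPM in control and 225 ± 50.9 with the drug (SD, n = 4), and these overlapped (adjusted p = 0.388 for fenofibrate in WT). The interaction of Irf7 was -1.47 ± 0.24 (adjusted p = 3.16e-04). Its Irgm1KO libraries fell to less than the Irgm1KO control range but stayed above every WT library.

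Cxcl11, a chemokine that draws T cells, went from 90.8 ± 15.9 to 4.15 ± 1.06 CPM in Irgm1KO and from 6.51 ± 1.23 to 2.67 ± 1.17 in WT. Isg20, an exonuclease that degrades viral RNA, went from 48.1 ± 15.9 to 3.64 ± 0.646 CPM in Irgm1KO, while WT held 2.605 ± 0.558 and 1.67 ± 0.4305 CPM. Their interactions were -3.15 ± 0.37 and -3.08 ± 0.35, among the 10 most negative of all genes with at least 5 CPM in a group. Apol9a and Apol9b, near-identical apolipoprotein L genes whose reads may be split between the copies, had interactions of -2.76 and -3.11.

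Some smaller but precise interactions came from responses of opposite sign. Trim25, a ubiquitin ligase that activates the RNA sensor RIG-I, was at 265, 247, 258 and 251 CPM in WT control and 300.5, 277, 304 and 293 with fenofibrate. In Irgm1KO it was at 498, 519, 496 and 485 CPM in control and 314, 312, 305 and 314 with the drug. Fenofibrate thus raised Trim25 in WT (log2 0.20) and lowered it in Irgm1KO (-0.68), and the treated Irgm1KO libraries lay just above the treated WT ones (interaction -0.88 ± 0.06, adjusted p = 1.05e-07).

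Bst2, a tether that holds budding virus on the cell surface, had the same crossing pattern, at 219 ± 12.9 and 279.7 ± 21.3 CPM in WT and 649 ± 52.1 and 359 ± 31.7 in Irgm1KO (interaction -1.21 ± 0.11). Herc6, which attaches ISG15 to other proteins in mice, was at 106 ± 8.47 and 103 ± 7.95 CPM in WT and fell from 258 ± 10.9 to 109.7 ± 9.27 in Irgm1KO (interaction -1.20 ± 0.10). The treated Irgm1KO range of Herc6 overlapped the WT ranges. Ly6e, a membrane protein of this list and its only member called with a positive interaction, had 0.52 ± 0.12 and is named after its value was seen.

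Promoters were searched for a well-known control element of each of several lists, and windows are shown from 3 of these lists. Only named genes with a match upstream of the start are shown, so the sequences were picked for having one. Named members without such a match or without a promoter entry are left out, and the heat-shock and cholesterol lists gave no window. The windows come from RefSeq promoters of build GRCm38.p6, which is not the build of the counts, and all lie upstream of the start on the gene's strand. Capitals mark only the first match to the element. The windows of Isg15, Bst2 and Gbp3 hold further matches that overlap or follow it and are left in lower case. The interferon element was searched as GAAANNGAAA, the amino acid response element that ATF4 binds as TGATGNAA, and the cell cycle genes homology region of mitotic genes as TTTGAA, all on both strands.
Isg15, chr4:156200862-156200921, minus strand: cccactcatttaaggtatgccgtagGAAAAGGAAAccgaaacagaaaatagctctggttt
Bst2, chr8:71537568-71537627, minus strand: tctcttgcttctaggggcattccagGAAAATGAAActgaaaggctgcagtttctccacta
Gbp3, chr3:142559974-142560033, plus strand: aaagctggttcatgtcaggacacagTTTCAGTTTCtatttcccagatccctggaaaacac
Atf3, chr1:191183410-191183469, minus strand: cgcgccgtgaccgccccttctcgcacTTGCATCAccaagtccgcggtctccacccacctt
Asns, chr6:7693210-7693269, minus strand: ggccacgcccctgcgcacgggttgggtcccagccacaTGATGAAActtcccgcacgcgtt
Cdc20, chr4:118437344-118437403, minus strand: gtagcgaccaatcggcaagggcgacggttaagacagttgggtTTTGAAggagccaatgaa

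The interferon element was found in 23 of 50 interferon-stimulated genes with a promoter in the table (46.0%), beside 4.07% of all 10249 tested genes with one. The amino acid response element was found in 9 of 30 ATF4 genes (30% beside 2.86%) and the mitotic element in 23 of 31 mitosis genes (74.2% beside 14.7%). The heat shock element, searched by its core GAANNTTCNNGAA, was in 4 of 15 heat-shock chaperones (26.7% beside 0.566%). The sterol regulatory element TCACNCCAC was in 1 of 20 cholesterol genes (5.00% beside 1.41%). The lists were compiled from genes known for these pathways, so a share above the background describes the lists, and a match is not a measured binding site. Each gene was counted once per motif, and overlaps between motifs were not examined. The middle of the match in capitals lies 73 bases before the start in Isg15 and 19 bases before it in Asns.

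Ifnb1, the gene for interferon beta, had few reads. In Irgm1KO control it had 104 to 238 counts per library, and with fenofibrate 7 to 19. In WT it had 1 to 7 counts in control and 1 to 4 with the drug, so no fold is given. Ifnb1 passed the low-count filter only through the Irgm1KO control libraries, so their height above the others is no separate result. The adjusted p of the interaction was 0.0297. The call was lost when WT control replicate 2 (adjusted p = 0.0505), WT fenofibrate replicate 2 (0.13) or WT fenofibrate replicate 4 (0.0798) was left out.

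Immunity-related GTPases and guanylate-binding proteins, which attack vacuoles that hold pathogens, were called at close to the background share. Of 19 tested, 4 had a negative and 1 a positive interaction (26.3%, beside 29.6% of all genes). Gbp3 was called, at 756 ± 10.1 and 621 ± 47.1 CPM in WT and 894 ± 36.7 and 531 ± 21.97 in Irgm1KO (interaction -0.47 ± 0.078, adjusted p = 3.12e-04). Fenofibrate lowered it in both genotypes, and further in Irgm1KO.

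Of 37 inflammatory cytokines and chemokines, 18 had a negative and 2 a positive interaction (54.1% called, beside 29.6% of all genes), with a median of -0.55. Fenofibrate lowered 17 in WT and 29 in Irgm1KO. Cytokines of macrophages act as signals to other immune cells, and those that changed unequally included monocyte and T cell attractants.

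Ccl2, which recruits monocytes, was at 117, 77.6, 84.7 and 100.1 CPM in Irgm1KO control and 36.1, 28.3, 31.8 and 37.4 with fenofibrate, against 13.7 ± 1.57 and 9.66 ± 2.29 in WT (interaction -1.01 ± 0.22, adjusted p = 0.00337). Ccl5, which recruits T cells, was at 382 ± 77.6 and 94.4 ± 13.3 CPM in Irgm1KO and 117 ± 31.1 and 81.6 ± 20.6 in WT (interaction -1.50 ± 0.29). Both fell in Irgm1KO, and with the drug Ccl5 came into the WT range while Ccl2 stayed above it. Cxcl10, another T cell attractant, fell in both genotypes, 3.79-fold in WT and 6.99-fold in Irgm1KO (interaction -0.88 ± 0.23, adjusted p = 0.00952).

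Nos2, the inducible nitric oxide synthase, was at 272, 274, 186 and 273 CPM in Irgm1KO control and 44.8, 88.6, 65.04 and 76.8 with fenofibrate. WT libraries held 52.9, 48.1, 65.4 and 65.5 CPM in control and 50.7, 36.9, 62.1 and 36.9 with the drug. Every Irgm1KO control library stood above all libraries of the other 3 groups, and the interaction was -1.55 ± 0.30 (adjusted p = 0.00144). Il1rn, the natural antagonist of the interleukin 1 receptor, fell from 156 ± 33.7 to 40.2 ± 8.03 CPM in Irgm1KO and was at 30.1 ± 3.76 and 38.02 ± 12.3 in WT (interaction -2.29 ± 0.33). Il18bp, which neutralises interleukin 18, rose in WT (log2 0.15) and fell in Irgm1KO (-0.39).

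The main inflammatory cytokines Tnf and Il1b did not pass the interaction test. Tnf was at 39.2, 44.1, 38.9 and 44.6 CPM in WT control and 20.3, 19.98, 20.3 and 17.1 with fenofibrate, and in Irgm1KO at 62.9, 62.9, 59.5 and 60.9 in control and 22.3, 30.9, 24.6 and 24.7 with the drug. Fenofibrate lowered it in both genotypes (2.15-fold and 2.401-fold), and the interaction was -0.16 ± 0.12 (adjusted p = 0.342). It was called without Irgm1KO fenofibrate replicate 2 (-0.27, adjusted p = 0.0268). Il1b fell in both genotypes as well, with an interaction of 0.77 ± 0.53 (adjusted p = 0.302). Il6 had 11 to 27 counts per library in Irgm1KO control, 0 to 2 in treated Irgm1KO cells, 1 to 4 in WT control and 2 to 8 in treated WT cells, so no fold is given. Il6 passed the low-count filter only through its Irgm1KO control libraries. Its call (adjusted p = 3.00e-04) is therefore not set against the results of Tnf and Il1b.

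Among 31 NF-kB feedback and target genes, 9 had a negative and 2 a positive interaction (35.5% called, beside 29.6% of all genes, median -0.23), although fenofibrate lowered 24 in WT and 27 in Irgm1KO. Clec4e, a receptor for mycobacterial glycolipid, was at 188 ± 26.2 and 49.9 ± 10.98 CPM in Irgm1KO and 81.99 ± 10.4 and 60.7 ± 7.299 in WT (interaction -1.48 ± 0.22). Ripk2, the kinase of NOD receptor signalling, fell in both genotypes and further in Irgm1KO (interaction -0.59 ± 0.068). Sod2, the mitochondrial superoxide dismutase, did likewise (interaction -0.76 ± 0.14).

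Antigen presentation split by class. Of 23 genes of MHC class I presentation, 16 had a negative and 2 a positive interaction (78.3% called, median -0.32). Of 13 of class II, 7 had a positive and none a negative one (53.8% called, median 0.46). Of all tested genes 29.6% were called. No class II gene was negative at an unadjusted p under 0.05 in edgeR or by DESeq2 either. Class I loads peptides from inside the cell for CD8 T cells, and class II loads peptides from engulfed material for CD4 T cells.

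H2-Q4, a class Ib heavy chain, was at 441, 428, 380.3 and 423 CPM in Irgm1KO control and 199, 263, 209 and 204 with fenofibrate, and at 235 ± 8.49 and 231 ± 10.2 in WT (interaction -0.91 ± 0.11). H2-Q6 had an interaction of -2.06 ± 0.19. Genes of the H2-Q family are near-identical, so reads may be split among them. Calr, the peptide-loading chaperone of the class I list, went the other way, falling in WT (log2 -0.34) and rising in Irgm1KO (0.42).

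Ciita, the master activator of class II genes, was at 561, 559, 529 and 475 CPM in WT control and 416, 369.9, 377 and 309.9 with fenofibrate, and at 346, 415, 434 and 385 in control and 366, 400.1, 379 and 365 with the drug in Irgm1KO. It fell in WT and was not called in Irgm1KO (log2 -0.53 and -0.066, interaction 0.46 ± 0.12, adjusted p = 0.00877). H2-DMa, which loads peptides onto class II, fell in WT (-0.48) and stood at 0.075 in Irgm1KO (adjusted p = 0.423). Ctss, the protease that trims the class II invariant chain, had an interaction of 0.37 ± 0.10 (adjusted p = 0.0111).

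**Figure D2:**
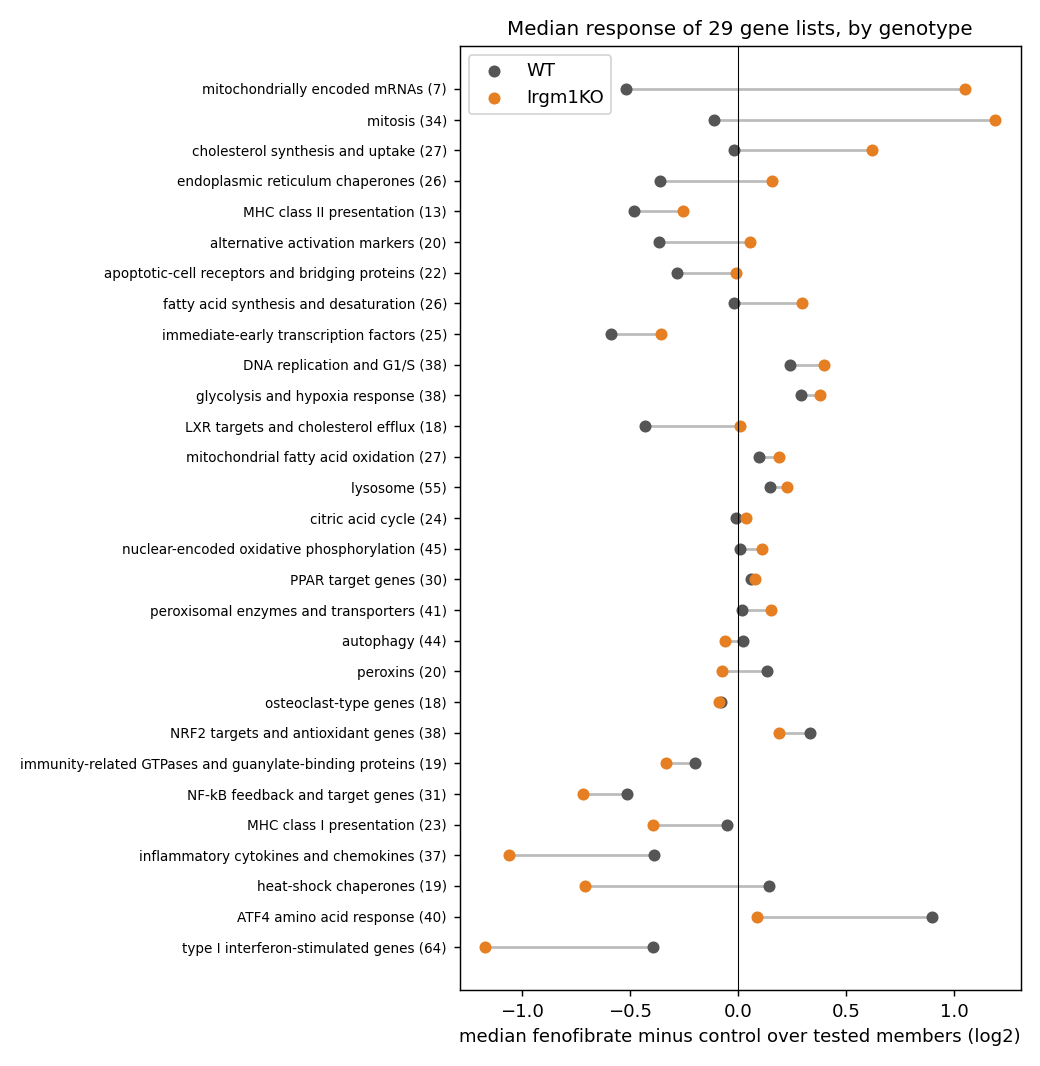
Rows are 29 gene lists with the number of tested members, ordered by median interaction, and the x axis is the median of fenofibrate minus control over members (log2). Grey points are WT and orange points Irgm1KO, and the list medians lie farthest apart for mitochondrially encoded mRNAs (-0.52 and 1.05), mitosis (-0.11 and 1.19) and heat-shock chaperones (0.14 and -0.71).

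Heat-shock chaperones, which refold or hold damaged proteins under the control of HSF1, had 17 negative interactions and none positive among 19 tested genes (median -0.66). Thus 89.5% of the list was called, beside 29.6% of all genes. The positive count was also 0 at an unadjusted p under 0.05 in edgeR and by DESeq2. Fenofibrate lowered 17 of them in Irgm1KO, and in WT raised 8 and lowered 4. Hspa1b, an inducible HSP70, was at 61.3, 70.6, 51.5 and 66.01 CPM in Irgm1KO control and 2.12, 3.63, 3.06 and 3.43 with fenofibrate. In WT it was at 0.971, 0.771, 1.71 and 1.26 CPM in control and 0.932, 0.9602, 1.93 and 2.03 with the drug. It fell 20.3-fold in Irgm1KO and was not called in WT (adjusted p = 0.441), and its interaction of -4.66 ± 0.39 was the most negative of the genes with at least 5 CPM. Its near-identical neighbour Hspa1a, between which reads may be split, had -4.18 ± 0.37.

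Hsp90aa1 and Dnaja1 varied little between libraries of a group. Hsp90aa1, an HSP90, was at 137, 142, 142 and 139.9 CPM in WT control, 147, 158, 148 and 164 in treated WT cells, 437, 461, 428 and 457 in Irgm1KO control and 246, 237, 225 and 248 in treated Irgm1KO cells. Both Irgm1KO groups lay above both WT groups. The interaction was -1.04 ± 0.067 (adjusted p = 7.36e-08). Dnaja1, an HSP40 partner of HSP70, fell in both genotypes, from 186 ± 7.26 to 74.9 ± 3.38 CPM in Irgm1KO and from 57.2 ± 1.46 to 51.2 ± 3.48 in WT (interaction -1.15 ± 0.072). Hspa4l, a nucleotide exchange factor of HSP70, rose in WT (log2 0.62) and fell in Irgm1KO (-0.52).

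The ATF4 genes, which cells switch on when amino acids run short or the integrated stress response is active, had a different shape. Fenofibrate raised 35 of 40 in WT (median 0.90), and in Irgm1KO raised 14 and lowered 5 (median 0.09). The interaction was negative for 32 and positive for 1 (82.5% called, beside 29.6% of all genes, median -0.80). The median difference between genotypes was 0.92 without the drug and -0.0041 with it.

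Asns, asparagine synthetase, was at 19.9, 12.1, 13.8 and 22.4 CPM in WT control and 71.7, 63.2, 66.9 and 107 with fenofibrate. In Irgm1KO it was at 90.9, 90.7, 87.3 and 100.9 CPM in control and 78.9, 102, 96.3 and 95.8 with the drug. WT control stood below the other 3 groups, and the interaction was -2.17 ± 0.26 (adjusted p = 3.51e-05). Trib3, a pseudokinase that feeds back on ATF4, was at 5.07, 2.66, 3.25 and 5.03 CPM in WT control, 34.9, 36.5, 38.6 and 84.3 in treated WT cells, 33.5, 33.7, 31.2 and 35.6 in Irgm1KO control and 23.5, 35.6, 34.1 and 29.4 in treated Irgm1KO cells (interaction -3.72 ± 0.39). One WT fenofibrate library of Trib3 stood far above the other 3, which also exceeded every WT control library.

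Slc7a5, the large neutral amino acid transporter, rose 5.43-fold in WT and fell 1.73-fold in Irgm1KO (interaction -3.23 ± 0.22). Slc6a9, a glycine transporter, did the same (log2 1.72 and -0.88). Mthfd2, a mitochondrial folate enzyme, rose in WT from 48.2 ± 5.78 to 116 ± 12.4 CPM and was at 122 ± 13.3 and 134 ± 6.84 in Irgm1KO (interaction -1.13 ± 0.13). Atf3, a stress-induced factor downstream of ATF4, rose in WT (0.38) and fell in Irgm1KO (-0.67). Ddit4, an inhibitor of mTORC1 and the 1 positive member, had an interaction of 0.97 ± 0.26 and is named after its value was seen.

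**Figure D3:**
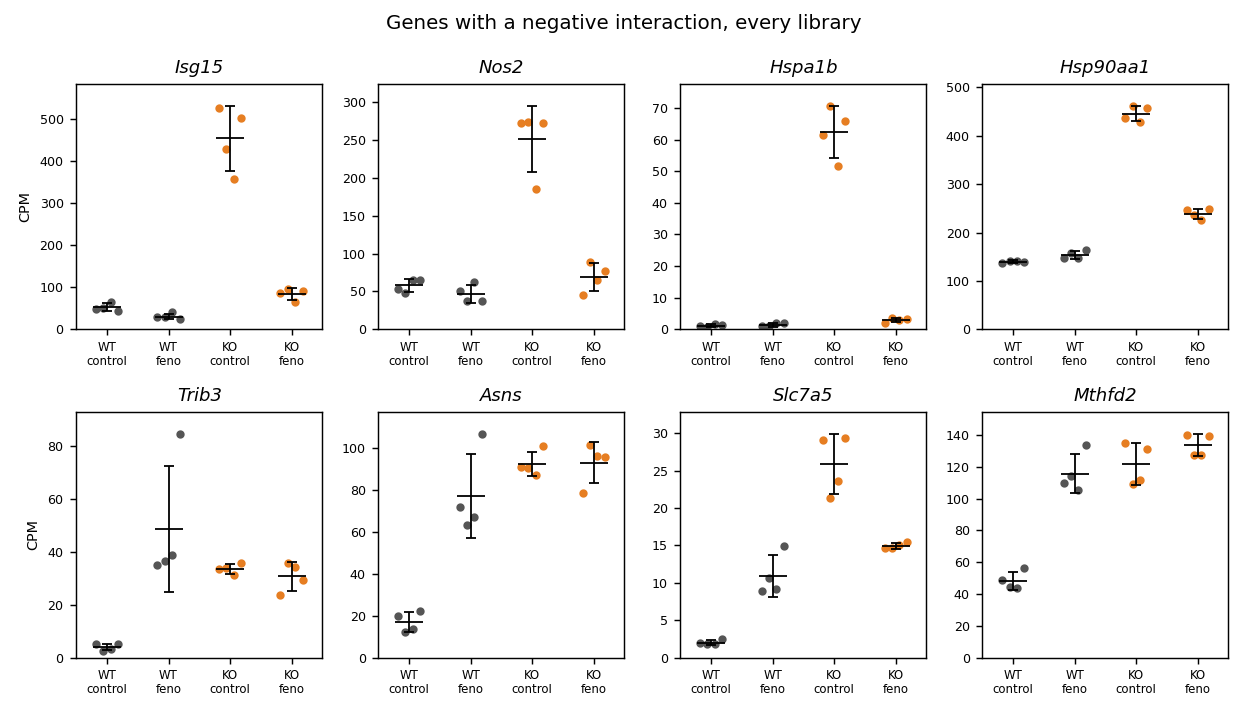
The y axis is CPM on a linear scale from 0, points are single libraries, and bars are the mean ± SD of 4 libraries in each group, WT in grey and Irgm1KO in orange. Isg15, Nos2, Hspa1b and Hsp90aa1 were highest in Irgm1KO control, while Trib3, Asns, Mthfd2 and Slc7a5 were lowest in WT control.

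Chaperones of the endoplasmic reticulum moved against the ATF4 and heat-shock genes. Of 26 tested, 18 had a positive interaction and 1, Ern1, a negative one (73.1% called, beside 29.6% of all genes, median 0.51). Fenofibrate lowered 20 and raised 2 in WT, and raised 14 and lowered 2 in Irgm1KO. These proteins fold secreted and membrane proteins, and Ern1 encodes the stress sensor IRE1 (interaction -0.37 ± 0.13, named after its value was seen). The call of Ern1 was lost without any of 8 of the 16 libraries.

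Herpud1, which takes part in degrading misfolded endoplasmic reticulum proteins, was at 69.6, 69.4, 68.7 and 78.2 CPM in WT control and 56.2, 54.5, 52.9 and 49.6 with fenofibrate. Irgm1KO libraries held 34.3, 33.3, 33.8 and 33.9 CPM in control and 51.3, 51.9, 51.8 and 52.8 with the drug. It fell in WT and rose in Irgm1KO until the treated groups overlapped (interaction 1.04 ± 0.067, adjusted p = 7.36e-08). Sdf2l1, a cofactor of the chaperone BiP, went from 200.5 ± 8.72 to 121.1 ± 13.6 CPM in WT and from 121.3 ± 4.55 to 167 ± 10.5 in Irgm1KO (interaction 1.18 ± 0.098). Pdia6, a disulfide isomerase, had the same signs (log2 -0.48 and 0.30).

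Cholesterol synthesis and uptake genes are driven by SREBP2 when cell sterol is low. Of 27 tested, 22 had a positive interaction and none a negative one (81.5% called, beside 29.6% of all genes, median 0.69). The negative count was also 0 at an unadjusted p under 0.05 in edgeR and by DESeq2. Fenofibrate raised 26 of them in Irgm1KO (median 0.62), and in WT raised 2 and lowered 7 (median -0.02).

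Sqle, squalene epoxidase, was at 14.98, 14.9, 10.2 and 16.2 CPM in control and 17.8, 17.1, 13.8 and 17.8 with the drug in WT cells. In Irgm1KO cells it was at 7.495, 7.75, 8.27 and 5.9998 CPM in control and 23.6, 25.3, 24.6 and 27.05 with the drug (interaction 1.53 ± 0.18, adjusted p = 1.95e-05). The treated Irgm1KO libraries of Sqle exceeded all others. Fdps, farnesyl diphosphate synthase, rose in Irgm1KO from 12.8 ± 0.553 to 28.3 ± 2.02 CPM and was at 19.5 ± 2.496 and 18.6 ± 1.04 in WT (interaction 1.21 ± 0.11).

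Srebf2, which encodes SREBP2 itself, was at 97.9 ± 8.23 and 88.8 ± 7.93 CPM in WT and rose from 69.4 ± 3.48 to 113 ± 2.51 in Irgm1KO (interaction 0.84 ± 0.094).

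Of 26 genes of fatty acid synthesis and desaturation, 12 had a positive and 3 a negative interaction (57.7% called, beside 29.6% of all genes, median 0.27). Fasn, fatty acid synthase, was at 60.7, 63.6, 56.8 and 67.7 CPM in WT control, 47.6, 43.9, 37.6 and 44.02 in treated WT cells, 31.6, 32.7, 32.7 and 33.9 in Irgm1KO control and 65.6, 49.9, 57.1 and 64.8 in treated Irgm1KO cells. It fell in WT and rose in Irgm1KO, with no overlap of the groups within a genotype (interaction 1.38 ± 0.12, adjusted p = 1.02e-06). Fads1, Fads2 and Scd2, which desaturate fatty acids, rose in Irgm1KO (log2 0.83, 2.03 and 2.03) and were not called in WT (0.11, -0.60 and -0.37). Their interactions were 0.72, 2.62 and 2.40.

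LXR targets export sterol and oppose SREBP2. Of 18 tested, 5 had a positive and 2 a negative interaction (38.9% called, beside 29.6% of all genes, median 0.15). Scd2, given above, is 1 of the positive members (2.40), and the 2 negative members are Mylip and Nr1h3. Mylip, a ubiquitin ligase that LXR induces, fell from 47.5 ± 4.75 to 26.8 ± 2.72 CPM in WT and from 47.4 ± 1.37 to 15.1 ± 2.09 in Irgm1KO (interaction -0.82 ± 0.13). Nr1h3, which encodes LXR alpha, fell 1.41-fold in WT and 3.02-fold in Irgm1KO (interaction -1.10 ± 0.23). Abca1, the main cholesterol exporter, fell strongly in both genotypes, 5.17-fold in WT and 8.22-fold in Irgm1KO. Its interaction of -0.67 ± 0.28 was not called (adjusted p = 0.0848). It was called by DESeq2 (adjusted p = 0.0389), with pairs blocked (0.0193), and without WT fenofibrate replicate 4 (-0.88, adjusted p = 0.000659).

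**Figure D4:**
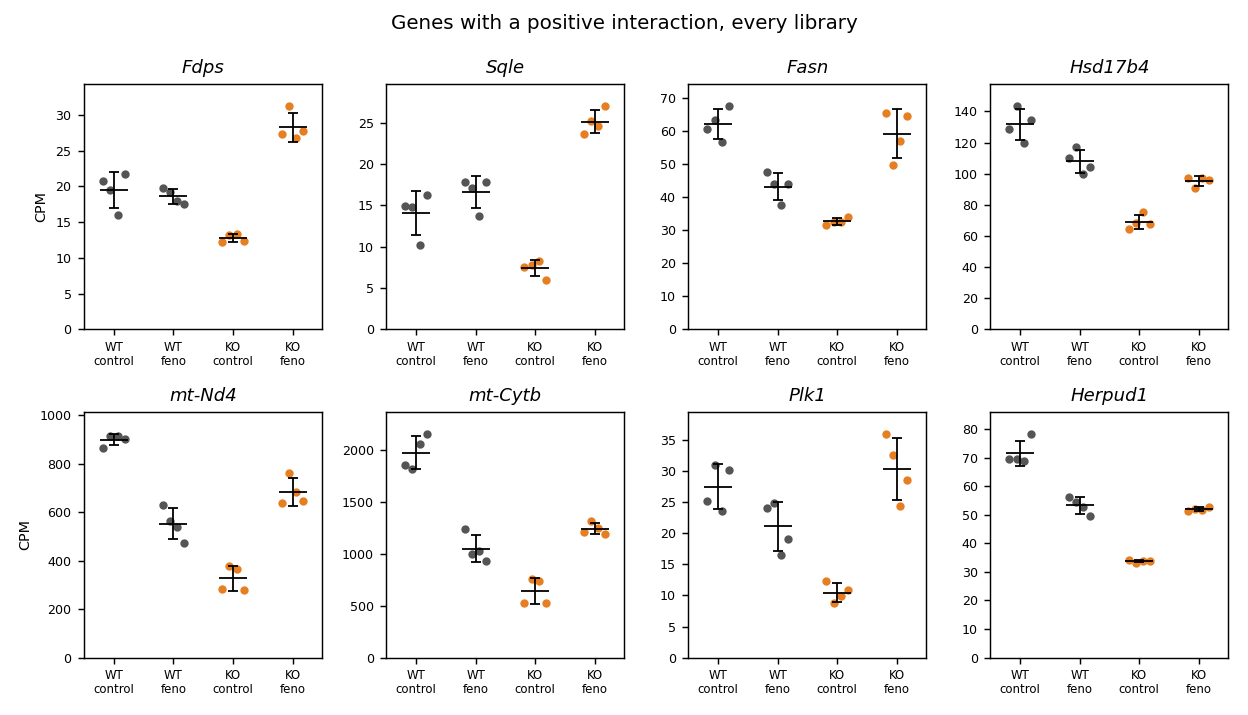
The y axis is CPM on a linear scale from 0, points are single libraries, and bars are the mean ± SD of 4 libraries in each group, WT in grey and Irgm1KO in orange. All 8 genes were higher with fenofibrate in Irgm1KO, and Fasn, Hsd17b4, mt-Nd4, mt-Cytb and Herpud1 fell in WT.

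Taken as a list, the target genes of PPARs, the receptors that fenofibrate is known to address, showed no common direction. Of 30 tested, 7 had a positive and 7 a negative interaction (46.7% called, beside 29.6% of all genes, median 0.09). Fenofibrate raised 11 and lowered 9 in WT, and raised 9 and lowered 10 in Irgm1KO. Members with higher estimates in both genotypes included Fabp4 (log2 1.04 in WT and 0.96 in Irgm1KO), Fabp5 (1.05 and 1.44) and Acot2 (1.09 and 0.74). Mgll stood at 1.43 and 2.31, and the interactions of these members were not called. Acot1 was higher in both as well (1.16 and 2.69), and its interaction was called (1.535 ± 0.34, adjusted p = 0.00286). Its group means were low, from 0.112 to 0.726 CPM. All of these are named after their values were seen. Ppara itself had 0 or 1 count in every library and was not tested, and neither was the classical PPAR alpha target Pdk4. Ppard, which encodes another PPAR, was at 31.4 ± 1.51 and 28.2 ± 1.81 CPM in WT and 20.9 ± 1.24 and 24.3 ± 2.13 in Irgm1KO (interaction 0.37 ± 0.094, adjusted p = 0.00676). Pparg was not called (-0.20 ± 0.16, adjusted p = 0.403), except with pairs blocked (-0.20, adjusted p = 0.0344).

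Plin2, a coat protein of lipid droplets, was at 449, 412, 395 and 435 CPM in WT control and 536, 483, 498 and 571 with fenofibrate, and in Irgm1KO at 629, 758, 699.6 and 665 in control and 521, 692, 604 and 547 with the drug. It rose in WT and fell in Irgm1KO (interaction -0.52 ± 0.12, adjusted p = 0.00358). Ucp2, a mitochondrial carrier, fell in WT (-0.79) and stood at 0.051 in Irgm1KO. Fabp3, a fatty acid-binding protein, fell in Irgm1KO (-1.32) and was not called in WT.

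Other familiar members did not pass the interaction test. Cpt1a, the gate of mitochondrial fatty acid oxidation, fell in both genotypes, from 289 ± 8.56 to 233 ± 16.98 CPM in WT and from 263 ± 15.05 to 234 ± 6.402 in Irgm1KO (interaction 0.14 ± 0.077, adjusted p = 0.197). Angptl4, an inhibitor of lipoprotein lipase, fell in both too (interaction 0.32 ± 0.29). Cd36, a fatty acid and lipoprotein receptor, spread widely within groups, with 303, 142, 366 and 330.4 CPM in WT control alone (interaction 0.41 ± 0.36, adjusted p = 0.441). With pairs blocked it was called (0.38, adjusted p = 0.0406).

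Of 27 genes of mitochondrial fatty acid oxidation, 7 had a positive and 4 a negative interaction (40.7% called, beside 29.6% of all genes, median 0.13). Hadhb, a subunit of the trifunctional protein, fell in WT from 32.3 ± 1.23 to 28.4 ± 1.15 CPM and rose in Irgm1KO from 25.3 ± 0.919 to 31.02 ± 0.635 (interaction 0.48 ± 0.061). Etfa, which passes electrons from these enzymes to the respiratory chain, moved oppositely (log2 0.14 in WT and -0.22 in Irgm1KO).

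Peroxisomal enzymes had 15 positive and 4 negative interactions among 41 (46.3% called, beside 29.6% of all genes). Peroxins, which build peroxisomes, were listed together with Fis1, Dnm1l, Mff and Acbd5, which are not peroxins. This list had 5 negative, Mff among them, and none positive among 20 (25% called, below the 29.6% of all genes). Of the 20, 1 was positive at an unadjusted p under 0.05 in edgeR and 0 by DESeq2. Hsd17b4, an enzyme of peroxisomal oxidation, fell in WT and rose in Irgm1KO from 69.1 ± 4.51 to 95.4 ± 3.02 CPM (interaction 0.75 ± 0.089). Idh1, which supplies NADPH in the cytosol and peroxisome, rose in Irgm1KO from 54.7 ± 4.24 to 90.3 ± 4.86 CPM and was not called in WT (interaction 0.63 ± 0.085). Pmvk, a mevalonate pathway kinase on both the peroxisomal and the cholesterol list, had 1.04 ± 0.13. Pex16, which acts in peroxisome membrane assembly, fell in Irgm1KO (-0.75) and had an interaction of -0.99 ± 0.14.

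The mRNAs encoded by mitochondrial DNA had the largest positive list median, 1.36. All 7 that passed the filter, of 13 listed, were called, beside 29.6% of all genes. Whether the other listed members failed the filter through their level or through how reads were counted was not tested. Fenofibrate lowered 6 of the 7 in WT and raised 7 of 7 in Irgm1KO. The median difference between genotypes was -1.17 without the drug and 0.24 with it. These genes encode core subunits of the respiratory chain.

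mt-Nd4, a subunit of complex I, was at 867, 914, 915 and 901 CPM in WT control and 631, 565, 541 and 475 with fenofibrate. Irgm1KO libraries held 284, 378, 367 and 279 CPM in control and 639, 763, 685 and 646 with the drug. No library of a control group overlapped the treated group of its genotype, and the treated Irgm1KO libraries lay above the treated WT ones (interaction 1.77 ± 0.14, adjusted p = 7.58e-07). mt-Cytb, of complex III, went from 1972 ± 159 to 1049.7 ± 134 CPM in WT and from 639 ± 127 to 1240.5 ± 53.2 in Irgm1KO (interaction 1.87 ± 0.17). mt-Nd2 and mt-Co1 had interactions of 1.36 and 1.34.

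Nuclear genes of oxidative phosphorylation were mixed. Of 45 tested, 13 had a positive and 4 a negative interaction (37.8% called, beside 29.6% of all genes, median 0.09). Cox7b, of complex IV, rose in Irgm1KO from 74.3 ± 3.08 to 116 ± 11.6 CPM and was at 97.02 ± 2.496 and 93.4 ± 4.54 in WT (interaction 0.70 ± 0.085). Cycs, cytochrome c, fell in Irgm1KO (-0.44) and was not called in WT. Cox6a2, a muscle-type subunit of complex IV, is not on this list. It was at 0.188, 0.175, 0.253 and 0.312 CPM in WT control, 6.27, 8.94, 7.09 and 17.9 in treated WT cells, 2.701, 2.14, 2.07 and 2.45 in Irgm1KO control and 3.61, 4.402, 5.402 and 4.68 in treated Irgm1KO cells (interaction -4.46 ± 0.44). It rose in both genotypes, and by far more in WT.

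In the citric acid cycle 6 of 24 genes had a positive and 2 a negative interaction (33.3% called, near the 29.6% of all genes). Idh2, the mitochondrial NADP-dependent isocitrate dehydrogenase, rose 1.32-fold in WT and 2.01-fold in Irgm1KO (interaction 0.60 ± 0.078). Mdh1, a cytosolic malate dehydrogenase, rose in Irgm1KO (0.50) and was not called in WT. Among 38 genes of glycolysis and the hypoxia response, 8 were positive and 1 negative (23.7% called, below the 29.6% of all genes). Aldoc, an aldolase, rose in Irgm1KO from 16.1 ± 3.04 to 50.8 ± 7.79 CPM and was at 28.8 ± 1.51 and 31.99 ± 2.12 in WT.

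Lysosomal genes had 15 positive and 5 negative interactions among 55 (36.4% called), and autophagy genes 7 positive and 11 negative among 44 (40.9%), beside 29.6% of all genes. Gusb, the lysosomal beta-glucuronidase, was at 820.3, 853, 771 and 861 CPM in WT control, 709, 705, 633 and 658 in treated WT cells, 316, 337, 376 and 356 in Irgm1KO control and 537, 544, 562 and 595 in treated Irgm1KO cells. It fell in WT and rose in Irgm1KO but stayed below WT (interaction 0.98 ± 0.086, adjusted p = 1.07e-06). Tax1bp1, an autophagy receptor, fell in Irgm1KO (-0.46) and had an interaction of -0.56 ± 0.07. NRF2 targets were mixed, with 6 positive and 9 negative of 38 (39.5% called). Abcc4, an efflux pump of that list, fell in WT (-0.34) and rose in Irgm1KO (0.40). Hmox1, heme oxygenase, was not called (-0.37 ± 0.15, adjusted p = 0.0848). It was called with pairs blocked (adjusted p = 0.00244), with an Xist covariate (0.0312), and without WT fenofibrate replicate 1 (0.0358) or replicate 3 (0.0486).

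Of 34 mitosis genes, 33 had a positive interaction and none a negative one (97.1% called, beside 29.6% of all genes, median 1.35). At an unadjusted p under 0.05 in edgeR 1 was negative, and 1 by DESeq2. Fenofibrate raised 33 of them in Irgm1KO (median 1.19) and lowered 1, and in WT lowered 2 (median -0.11). The median difference between genotypes was -0.96 without the drug and 0.37 with it. The exception was Tpx2, a spindle assembly factor, with -0.52 ± 0.20 (adjusted p = 0.0579, named after its value was seen). It was called negative with pairs blocked (-0.51, adjusted p = 0.000523), by DESeq2 (0.0321), and without WT fenofibrate replicate 3, Irgm1KO control replicate 2 or 3, or Irgm1KO fenofibrate replicate 1 (-0.61 to -0.64).

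Plk1, a kinase that drives mitosis, was at 25.1, 30.9, 23.6 and 30.1 CPM in WT control and 24.1, 24.8, 16.5 and 19.1 with fenofibrate. Irgm1KO libraries held 12.3, 8.84, 9.83 and 10.8 CPM in control and 35.9, 32.5, 24.4 and 28.6 with the drug. Irgm1KO control was below all other groups, and the treated Irgm1KO libraries overlapped those of WT control (interaction 1.91 ± 0.21, adjusted p = 1.31e-05). Cdc20, an activator of the anaphase-promoting complex, fell in WT (-0.55) and rose in Irgm1KO (1.21). Kif23, a motor of cell division, rose in Irgm1KO from 20.8 ± 0.961 to 53.8 ± 6.04 CPM and was at 43.9 ± 2.82 and 44.2 ± 9.62 in WT.

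Genes of DNA replication did not move as a block, with 11 positive and 5 negative interactions among 38 (42.1% called, beside 29.6% of all genes, median 0.18). Rrm2, a subunit of ribonucleotide reductase, rose in Irgm1KO from 31.9 ± 1.46 to 90.8 ± 14.5 CPM (interaction 1.27 ± 0.18). Fen1, a flap nuclease, fell in WT and rose in Irgm1KO (interaction 0.63 ± 0.098).

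**Figure D5:**
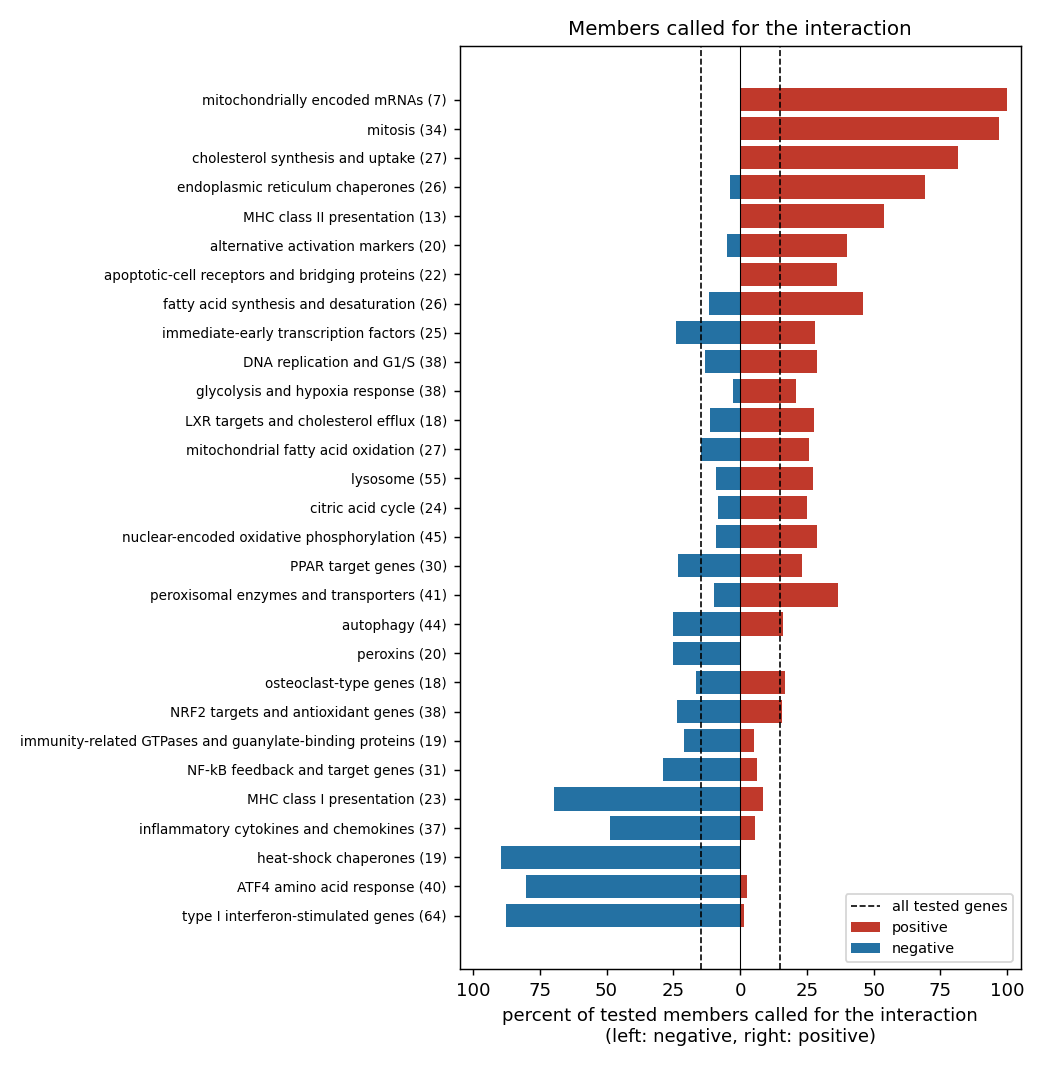
Bars give the percent of tested members (number in brackets) called with a positive (red, right) or negative (blue, left) interaction, and dashed lines mark the 14.9% and 14.7% of all tested genes. Interferon-stimulated, ATF4 and heat-shock genes extend to the left and mitochondrially encoded, mitosis and cholesterol genes to the right.

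Markers of alternative activation, the state that interleukin 4 brings about, had 8 positive and 1 negative interaction among 20 (45% called, beside 29.6% of all genes, median 0.45). Il4ra, the interleukin 4 receptor chain, fell in WT from 416 ± 21.6 to 233 ± 22.9 CPM and was at 191 ± 9.07 and 196 ± 6.38 in Irgm1KO (interaction 0.88 ± 0.091). Cd163, a haemoglobin scavenger receptor, was low in all groups, at 0.684 ± 0.184 and 0.371 ± 0.0979 CPM in WT and 0.104 ± 0.0452 and 0.424 ± 0.107 in Irgm1KO (interaction 2.89 ± 0.41). Of 22 apoptotic-cell receptors and bridging proteins, 8 were positive (36.4%, beside 14.9% of all genes) and none negative (median 0.33), with 1 negative at an unadjusted p under 0.05 in edgeR and 1 by DESeq2. Pros1 and Gas6, the ligands of the TAM receptors, had 1.80 ± 0.21 and 0.88 ± 0.11. Pros1 fell in WT and rose in Irgm1KO, and Gas6 rose in both.

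Immediate-early factors, which respond to signals within minutes, were divided, with 7 positive and 6 negative of 25 (52% called, beside 29.6% of all genes). Egr1 was at 8.43, 6.14, 8.06 and 6.78 CPM in WT control, 3.31, 2.41, 2.88 and 1.62 in treated WT cells, 12.4, 15.3, 13.02 and 12.6 in Irgm1KO control and 15.2, 23.2, 25.9 and 19.5 in treated Irgm1KO cells (interaction 2.18 ± 0.27). It fell in WT and rose in Irgm1KO, and Egr3 did the same (log2 -1.11 and 1.09). Dusp1, a phosphatase that ends MAP kinase signals, fell 3.83-fold in Irgm1KO and 1.43-fold in WT (interaction -1.43 ± 0.21). Osteoclast-type genes had 3 positive and 3 negative of 18 (33.3% called, near the 29.6% of all genes). Ctsk, cathepsin K, rose in WT (0.94) and fell in Irgm1KO (-1.14).

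Several of the largest or most precise interactions lay outside these lists. Igfbp4, which binds insulin-like growth factors, was at 48.6, 50.5, 60.2 and 57.2 CPM in WT control, 47.1, 38.8, 48.7 and 35.8 in treated WT cells, 5.86, 6.502, 8.18 and 6.41 in Irgm1KO control and 39.3, 37.3, 36.9 and 36.4 in treated Irgm1KO cells. It rose 5.56-fold in Irgm1KO and fell 1.27-fold in WT (interaction 2.82 ± 0.15, adjusted p = 3.38e-08). Ms4a14, a membrane protein of the MS4A family, was at 67.7, 61.3, 65.1 and 69.3 CPM in Irgm1KO control and 12.8, 12.04, 12.9 and 12.5 with fenofibrate, against 22.02, 21.7, 22.9 and 18.001 in control and 16.5, 18.2, 20.3 and 15.2 with the drug in WT. Its Irgm1KO control libraries stood far above all others (interaction -2.12 ± 0.12, adjusted p = 3.38e-08). Kcnab1, a potassium channel subunit, rose in WT and fell in Irgm1KO (log2 0.38 and -1.27).

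Sort1, a sorting receptor, rose in Irgm1KO from 4.72 ± 0.9595 to 19.4 ± 4.62 CPM and was at 36.1 ± 5.13 and 28.6 ± 3.05 in WT (interaction 2.38 ± 0.24). Itga1, the collagen-binding integrin alpha 1, fell in WT and rose in Irgm1KO (interaction 2.80 ± 0.29), as did Nxpe5 (3.35 ± 0.21). Soat2, which esterifies cholesterol, rose in WT and fell in Irgm1KO (interaction -2.97 ± 0.27).

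Cx3cr1, the fractalkine receptor of resident macrophages, was at 34.6, 90.03, 27.4 and 30.6 CPM in WT control and 8.61, 11.1, 4.35 and 4.52 with fenofibrate. Irgm1KO libraries held 5.81, 4.54, 7.35 and 5.83 CPM in control and 7.24, 3.91, 4.898 and 6.61 with the drug. It fell 6.37-fold in WT and was not called in Irgm1KO (log2 -0.056), although one WT control library was far above the other 3 (interaction 2.62 ± 0.56, adjusted p = 0.00316). Kbtbd11 had the same shape (2.46 ± 0.46). Hpgd, which inactivates prostaglandins, had the most positive value of the genes named by size, 3.48 ± 0.79, and one of the widest spreads, with 6.98, 17.2, 4.25 and 7.597 CPM in WT control.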

How the data were processed

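Messenger RNA was sequenced for 50 cycles from 16 libraries in 4 groups, taken from the sample titles, with RNeasy Plus Mini extraction and the Kapa mRNA HyperPrep kit per the labels' protocols. The authors deposited raw read counts, whole numbers for each Ensembl gene with no normalization. Per the submitters' processing notes the authors used fastp, STAR and DESeq2 with mouse build GRCm39. Counter, annotation and strand setting: not given in the sources used here. Near-identical, overlapping and antisense genes are therefore uncertain. Symbols were found for 91.2% of IDs and 97.4% of tested genes, and 1000 of 1002 list symbols were matched.

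The analysis ran in edgeR 4.0.16 under R 4.3.3: filterByExpr (minimum count 10, minimum total 15), TMM scaling, and 1 robust quasi-likelihood fit with a mean per group (biological coefficient of variation 0.12). Contrasts were adjusted by Benjamini-Hochberg over all 15429 tested genes, with a threshold of 0.05 for a call. The SE is the log2 value divided by the square root of F. CPM use the scaled library size. Library totals were 82.4 to 120.8 M counts (M is 1e6), so 1 CPM is about 82.4 to 120.8 counts. The fit was tested on simulated data. No group held a pair of libraries as alike as counting noise would make them.

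As a check of pairing, each library's deviation from its group mean was correlated between treated and control libraries of a genotype. Those with the same number gave r of 0.38 to 0.488 (WT) and 0.261 to 0.371 (Irgm1KO), and other pairs at most 0.145 and 0.0132, so the numbers pair the libraries. Y-linked reads and Xist gave the same sex for paired libraries. Xist was high for numbers 1 and 3 in WT and for numbers 1, 2 and 4 in Irgm1KO. Y-linked Ddx3y was high for the rest, so the sexes were not balanced between the genotypes. A fit with a term for each number is among the alternatives, with DESeq2 1.42.0 (scaling and Wald test), no filter, leaving out each library, leaving out the abundant gene ENSMUSG00000119584, and an Xist covariate.

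The text names the 10 largest values of each sign among called genes that reach 5 CPM in some group, up to 3 called members per list by p and the member with the smallest p, genes fixed by name, and 5 per response pattern, leaving out predicted and sex-linked genes. Some genes this covers are not reported. The question, the 29 gene lists and the 12 marker lists were chosen with earlier results of these data known. No set test was run, lists share members, and list counts are descriptions. The other deposited table, also whole-number counts (12 libraries of WT, Irgm1-KO and Irgm_IFNAR-KO), served to sort genes in the closing section.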

Additional observations from a re-analysis of the deposited data

Results flagged for a closer look

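The response to fenofibrate differed between the genotypes, by the test of the difference itself, for 2304 genes with a positive and 2261 with a negative interaction.

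In 20 of 451 groups of 4 libraries examined, 1 library lay apart from the other 3 by Dixon's 95% criterion, about the 1 in 20 that chance gives. In WT control these were Cx3cr1 in replicate 2 (90.0 CPM, others 27.4 to 34.6), Nxpe5 (38.8 CPM) and Herpud1 (78.2 CPM) in replicate 4, and Idh2 (28.9 CPM) in replicate 3. In WT fenofibrate, replicate 4 stood apart for Trib3 (84.3 CPM, others 34.9 to 38.6), Slc6a9 (7.36 CPM, others 3.62 to 4.24) and Tnf (17.1 CPM). Replicate 1 did so for Nr1h3 (18.3 CPM), and replicate 2 for Pex16 (7.35 CPM) and Idh2 (38.5 CPM). In Irgm1KO control, replicate 3 was low for Nos2 (186 CPM, others 272 to 274), replicate 2 high for Tax1bp1 (367 CPM) and replicate 1 high for Kcnab1 (14.1 CPM). In Irgm1KO fenofibrate, replicate 2 was high for H2-Q4 (263 CPM), Atf3 (222 CPM) and Sdf2l1 (182 CPM). Replicate 4 was high for Srebf2 (116 CPM), and replicate 3 low for Idh2 (36.8 CPM). The unnamed gene ENSMUSG00000119584 took 6.24% of counts in WT fenofibrate replicate 2 (others 1.42% to 2.17%) and 8.13% in Irgm1KO fenofibrate replicate 1 (others 2.17% to 2.61%).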

How the results depend on the processing

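Under 6 other settings and with each of 16 libraries left out, the 6 counts of called genes stayed within 1.5 times their values. With a replicate block for each number within a genotype, 2972 genes were positive and 2943 negative for the interaction, the highest counts, and 99.0% of the 4565 called genes remained called with the same sign. Without a count filter the counts were 1947 and 1685, the lowest of these 6 settings, and 77.8% of the calls remained. Leaving out a library gave 1938 to 2635 positive and 1897 to 2816 negative, and 83.8% to 95.3% of the calls remained. With the Xist covariate 98.6% remained, by DESeq2 99.0%, and no called gene changed sign in any setting.

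Of the named genes followed under these settings, 1 reversed: Ehhadh, not called, had -0.032 without Irgm1KO control replicate 4, against 0.11 with all libraries and up to 0.275 without another library. The call of Ifnb1 was lost without any of 3 libraries, and that of Ern1 without a filter and without any of 8 libraries (WT control replicates 2 and 4, WT fenofibrate 1 and 3, Irgm1KO control 1, 2 and 4, Irgm1KO fenofibrate 3), while the block changed no call to lost and added Abca1, Pparg, Cd36, Hmox1 and Tpx2. The cause was not tested. Il6 kept its call in every setting, but it had few reads and passed the filter only through Irgm1KO control. Its kept call is therefore no separate support.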

Other observations

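The series holds another experiment whose libraries are not used above. It is called the first here, and the fenofibrate experiment the second. The first allows the interaction to be read against a genotype difference measured in other libraries. In the first, WT and Irgm1-KO macrophages were compared without fenofibrate (n = 4 each), in 12 libraries of 48.6 to 70.5 M counts. This comparison was chosen after the interaction values were seen, and 13676 genes were tested in both experiments.

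Genes that were higher in Irgm1-KO in the first experiment had mostly negative interactions in the second. Of 2721 such genes, 1439 (52.9%) were called negative and 13 (0.478%) positive, beside 15.9% and 16.4% of all genes tested in both. Their median response to fenofibrate was 0.06 in WT and -0.30 in Irgm1KO, and their median difference between genotypes was 0.45 in control cells and 0.11 in treated ones. Of 2842 genes that were lower in Irgm1-KO, 1530 (53.8%) were called positive and 4 (0.141%) negative. Their median response was -0.07 in WT and 0.35 in Irgm1KO, and their median genotype difference was -0.51 in control cells and -0.08 in treated ones. Among 8113 genes not called in the first experiment, 8.58% were positive and 8.94% negative. For the 795 genes over 2-fold higher in Irgm1-KO, 530 (66.7%) were negative and 1 positive, with a median response of 0.04 in WT and -0.94 in Irgm1KO.

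The Irgm1KO control libraries enter the interaction but not this sorting of genes. Whether both experiments used the same animals or cultures is not given in the labels.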
